A study of Mus musculus with 12 samples.

Results

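Nhs, Cmya5, Fscn1, Il7r, Cfap74 and Tcim were followed here in spinal cord microglia, 6 genes of the 48526 in the count tables. They were chosen by hand because they had clear reads in control microglia and few in disease, so their levels against control are given as a description, with no test. RNA was sequenced from 12 mice of the Biozzi ABH strain, 3 in each of 4 groups. The disease groups had chronic relapsing experimental autoimmune encephalomyelitis (crEAE), an immune attack on brain and spinal cord that models multiple sclerosis in mice. They were taken in the acute phase, in remission and in the chronic phase, and the remaining mice were labelled only as control. The day of sampling, the age and sex of the mice and the way disease was induced are not given in the sources used here. Microglia were sorted from spinal cord through a gate of CD11b-positive cells with intermediate CD45 and without Ly-6C, a marker of recruited monocytes.

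The 6 genes are best known from other cells. Fscn1 encodes fascin, which bundles actin filaments into the thin protrusions called filopodia and is abundant in neurons and mature dendritic cells. Nhs encodes a regulator of actin remodelling and cell shape, named after Nance-Horan syndrome, the human eye and tooth disorder its loss causes. Il7r encodes the alpha chain of the receptor for the lymphocyte growth factor interleukin-7 and also serves, with Crlf2, in the receptor for TSLP. Cmya5 encodes myospryn, a large scaffold protein of striated muscle. Cfap74 encodes a protein of the central apparatus of motile cilia and flagella. Tcim encodes a small protein that, in human cells, binds the beta-catenin inhibitor Chibby. Microglia are the resident macrophages of the central nervous system, and many genes typical of their resting state are known to fall when they are activated.

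The start regions of 3 of the genes are shown because they span the range of CpG content among these genes and come from genes that followed different courses. Each window runs from 250 bases before to 50 bases after the start of the RefSeq gene on GRCm38.p6 and is printed 5′ to 3′ on the strand of the gene, with matched motifs in capitals. The windows lie at chr4:155408940-155409239 on the plus strand for Cfap74, chr5:142960105-142960404 on the plus strand for Fscn1 and chr15:9529827-9530126 on the minus strand for Il7r.
Cfap74: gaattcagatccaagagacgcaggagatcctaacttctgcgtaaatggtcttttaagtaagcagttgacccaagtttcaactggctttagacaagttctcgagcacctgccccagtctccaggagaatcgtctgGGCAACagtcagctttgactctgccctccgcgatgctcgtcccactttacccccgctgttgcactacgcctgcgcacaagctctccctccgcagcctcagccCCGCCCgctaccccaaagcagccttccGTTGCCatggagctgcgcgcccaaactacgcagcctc
Fscn1: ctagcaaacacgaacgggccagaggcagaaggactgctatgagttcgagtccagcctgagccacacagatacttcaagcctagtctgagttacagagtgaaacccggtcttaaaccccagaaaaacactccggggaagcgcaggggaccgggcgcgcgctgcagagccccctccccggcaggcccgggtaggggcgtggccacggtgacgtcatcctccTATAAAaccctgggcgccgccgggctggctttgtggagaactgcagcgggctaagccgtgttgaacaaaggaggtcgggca
Il7r: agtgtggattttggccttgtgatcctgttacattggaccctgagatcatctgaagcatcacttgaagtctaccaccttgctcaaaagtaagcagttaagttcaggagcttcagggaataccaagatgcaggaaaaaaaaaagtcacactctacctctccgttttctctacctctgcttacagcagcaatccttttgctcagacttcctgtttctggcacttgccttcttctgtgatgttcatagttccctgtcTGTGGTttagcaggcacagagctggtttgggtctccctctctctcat
In the Cfap74 window the capitals mark the core of the site bound by RFX factors, regulators of cilium genes, (GTTGCC) at position 13 on the printed strand and, as its reverse complement, at position -116, and a GC box (GGGCGG) on the opposite strand at position -14, counted from 0 at the start base. In the Fscn1 window they mark a TATA motif (TATAAA) at position -31, and in the Il7r window a RUNX motif (TGTGGT) at position 3. These motifs are common: over both strands, GTTGCC occurred in 12.5%, GGGCGG in 35.7%, TATAAA in 13.6% and TGTGGT in 16.8% of 32851 RefSeq windows of the same length. The Il7r window held 45.7% GC and 1 CpG site, the Cfap74 window 57% GC and 17 CpG sites, and the Fscn1 window 61.7% GC and 21 CpG sites, beside medians of 52.7% GC and 7 CpG sites over all windows. The RefSeq start of Il7r lay 300 bases from the GENCODE start, and that of Nhs 289 bases from it. The windows of Cmya5 (55.3% GC, 9 CpG sites, a GC box at position -2 and the ETS core GAGGAA at position 28) and Nhs (63.3% GC, 18 CpG sites) were also searched. GAGGAA occurred in 28.3% of all windows. The Nhs window held none of the 10 motifs searched, the other 5 being TGANTCA for AP-1 (7.81% of all windows), CACGTG for the E-box (7.15%), GTCTAGAC for SMAD (0.213%), and the MEF2 (3.69%) and interferon response motifs (3.44%), which none of the 5 windows held. No matches overlapped. A matched motif is a description of the letters and not a measured binding site.

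Depth and makeup of the libraries bear on every value that follows. Total counts per library ran between 3992885 and 5712376, of which the 6 features with the most counts took 48.3 to 64.1%, and between 1266782 and 2496096 counts were left once these and the mitochondrially encoded genes were set aside. Levels are given in CPM, the counts of a gene relative to the total of its library. They are scaled by trimmed mean of M values (TMM) factors over 12545 genes with enough counts to test, and all 6 genes were among them. Nhs was among them only through its control libraries, with 48 to 85 counts in each, beside 0 to 7 in each disease library. The microglial label held in control libraries, where Tmem119 averaged 972 ± 68.2 CPM, P2ry12 679 ± 93 CPM and Cx3cr1 2190 ± 118 CPM (SD, n = 3). In acute libraries the same genes averaged 187 ± 47.4, 66.5 ± 18.8 and 431 ± 141 CPM in that order (SD, n = 3). A list of 24 genes for resting microglia was chosen with earlier results of these data known. In acute against control libraries 23 of them fell and 1, Gpr84, rose (edgeR, adjusted p under 0.05). Among all tested genes 20% fell and 23.7% rose. Of 15 genes of monocytes and recruited macrophages, 14 were tested, and all 14 rose in acute against control libraries (edgeR, adjusted p under 0.05), with sums of 1610 to 2400 CPM in acute, 12.2 to 25.5 CPM in remission, 18.7 to 25.5 CPM in chronic and 10.2 to 48.6 CPM in control libraries. Ly6c2, Chil3, Ms4a8a and S100a4 were at 0 counts in control. All 9 neutrophil genes tested of 11 rose in acute libraries, with sums of 128 to 428 CPM in acute, 1.06 to 57.8 CPM in remission, 0.18 to 12.2 CPM in chronic and 0.35 to 0.647 CPM in control libraries. Of 10 oligodendrocyte genes, 8 were tested and 6 rose in acute libraries, with sums of 453 to 594 CPM in acute, 71.9 to 707 CPM in remission, 82.6 to 84.3 CPM in chronic and 88.9 to 111 CPM in control libraries. Mitochondrially encoded genes took 5.18 to 5.74% of counts in acute, 2.51 to 3.81% in remission, 3.02 to 4.36% in chronic and 1.92 to 2.29% in control libraries. The part of these cells and of RNA quality in the acute levels was not tested, and in RNA from sorted cells in bulk, fewer cells of a type and less RNA per cell cannot be told apart.

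**Figure D1:**
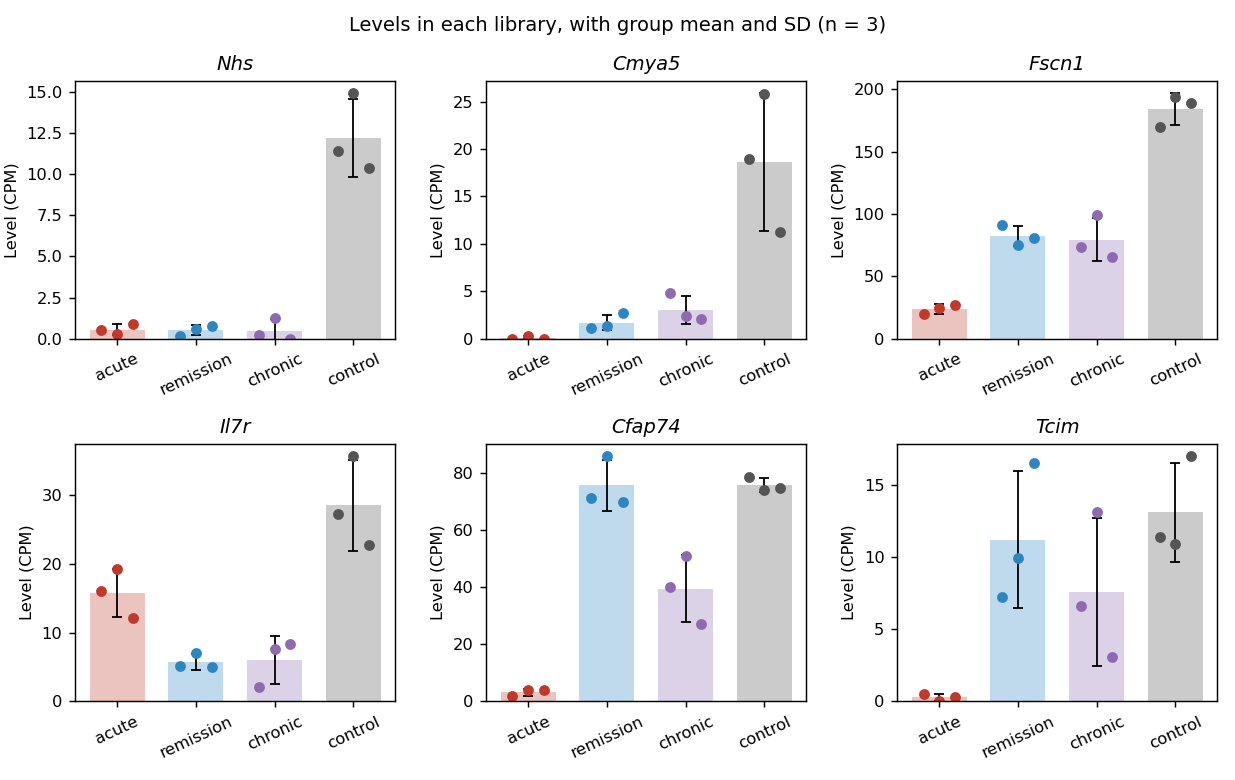
Level of each gene in CPM (y axis, starting at 0) in every library of the acute, remission, chronic and control groups (x axis). Points are libraries, bars are group means and error bars are SD (n = 3). Control libraries sit above all acute libraries in each panel, while Cfap74 and Tcim in remission reach control levels.

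Low levels in disease, for which the genes were chosen, were present in every phase for Nhs, Cmya5, Fscn1 and Il7r. That label held only in part for Cfap74 and Tcim, whose remission means stood at 99.9% and 85.6% of the control mean. The 6 genes thus followed 4 courses: Nhs was near 4% of control throughout, Cmya5 and Fscn1 were under the control range in each phase and lowest in the acute phase, Cfap74 and Tcim stood under 5% of control in the acute phase alone, and Il7r was highest among disease phases in the acute phase.

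**Figure D2:**
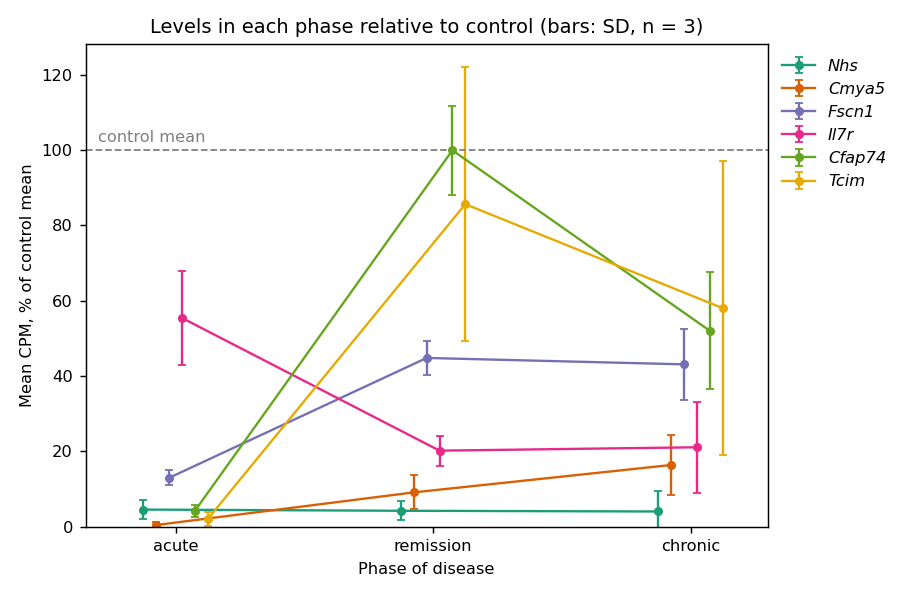
Mean CPM of each gene in the acute, remission and chronic phases (x axis) as a percentage of its control mean (y axis, dashed line at 100). Error bars are the SD of the 3 libraries of a phase on the same scale. Il7r, at 55.4% in the acute phase and 20.2% in remission, runs opposite to Cfap74, at 4.25% and 99.9%.

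Fascin was the most abundant of the 6 for its length. Fscn1 lies at chr5:142960343-142973185 on the plus strand (GRCm38, GENCODE M21), with 3012 bases of exon. It had 19.7, 25 and 27 CPM in the acute libraries, 91.4, 75.4 and 80.7 CPM in remission, 73.8, 99 and 65.5 CPM in chronic libraries, and 170, 194 and 189 CPM in control. No disease library reached a control library, and no acute library reached a remission or chronic library. The means were 23.9 ± 3.76 CPM in acute, 82.5 ± 8.14 CPM in remission, 79.5 ± 17.5 CPM in chronic and 184 ± 12.7 CPM in control libraries (SD, n = 3 each), and the acute mean was 13%, the remission mean 44.8% and the chronic mean 43.1% of the control mean. Per kilobase of exon, Fscn1 stood above 79.8% of the 10839 tested protein-coding genes in acute libraries and above 99.2% of them in control libraries.

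Fscn1 rose in remission against the acute phase by 1.79 ± 0.17 on the log2 scale (SE; adjusted p = 8.14e-08, edgeR) and in the chronic phase against the acute phase by 1.74 ± 0.17 (adjusted p = 1.75e-07, edgeR). Between chronic and remission libraries its difference was -0.05 ± 0.15 (adjusted p = 0.916, edgeR). The counting interval of the chronic over remission ratio was 0.907 to 1.07, which leaves out the spread between mice. The genes nearest to it in profile over the 12 libraries were Siglech, a lectin used as a microglial marker, Tmem176b and Arap3, a GTPase-activating protein, with root mean square differences of 0.22, 0.23 and 0.24 in log2 CPM after each gene's control mean was subtracted. Siglech averaged 53.9 ± 10.4 CPM in acute, 175 ± 6.93 CPM in remission, 160 ± 13.8 CPM in chronic and 344 ± 31.7 CPM in control libraries (SD, n = 3 each).

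The other actin-bundling and filopodia genes were mixed in direction. Of 23 such genes, 18 were tested, and 10 rose and 5 fell in acute against control libraries, with a median log2 fold change of 0.63 beside 0.02 over all genes. The call was an adjusted p under 0.05 in edgeR's quasi-likelihood test, which took in 43.7% of all tested genes in either direction, 23.7% higher and 20% lower. Under scaling by library totals, which moved the median of all genes by -0.53, 4 of the 18 rose and 6 fell, so the balance of the list turned. Fmnl2, a formin that elongates actin filaments, rose in acute libraries by 1.99 ± 0.16 (log2, SE; adjusted p = 6.3e-09, edgeR) and Diaph1, another formin, by 1.63 ± 0.18 (adjusted p = 7.48e-07, edgeR). Fmnl3, also a formin, fell by 0.94 ± 0.12 on the log2 scale (adjusted p = 3.42e-06, edgeR). The other fascins were scarce, Fscn2 averaging 0.857 ± 0.81 CPM in acute and 0.57 ± 0.193 CPM in control libraries, and Fscn3 having no count in acute libraries and 0.0474 ± 0.0821 CPM in control (SD, n = 3 each). Dendritic cell genes were 4 higher and 2 lower of 6 tested from a list of 13 in acute against control libraries. Their sums were 75.9 to 101 CPM in acute, 105 to 187 CPM in remission, 41.6 to 128 CPM in chronic and 26.3 to 38.6 CPM in control libraries, with Clec9a and Cd209a at 0 counts in control. Most of the sum in each disease phase came from Itgax, so the order of the sums is mainly that of 1 gene. Per kilobase of exon Itgax averaged 10.7 CPM in acute, 25.8 CPM in remission, 15.5 CPM in chronic and 1.71 CPM in control libraries. In remission against acute libraries 1 of the 6 tested genes rose and 2 fell. Ccr7, a marker of mature dendritic cells, was at 5.94 ± 3.42 CPM in acute and 0.0474 ± 0.0821 CPM in control libraries (SD, n = 3 each), the order opposite to that of Fscn1. Zbtb46 and Batf3, transcription factor genes of conventional dendritic cells, ran in the same order as Fscn1. Zbtb46 averaged 7.02 ± 0.775 CPM in acute and 14.8 ± 3.08 CPM in control libraries, and Batf3 2.92 ± 0.828 CPM in acute and 7.03 ± 2.17 CPM in control libraries (SD, n = 3 each). Itgax, Ccr7, Zbtb46 and Batf3 were chosen after their values were seen. The part of these cells in the level of Fscn1 was not tested.

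Nhs was low in every phase. It lies at chrX:161833296-162159730 on the minus strand, with 8805 bases of exon. Its levels were 0.519, 0.266 and 0.889 CPM in acute libraries, 0.185, 0.574 and 0.797 CPM in remission, 0.227, 1.26 and 0 CPM in chronic libraries, and 11.4, 14.9 and 10.4 CPM in control. The 3 disease groups overlapped each other and lay far under the control libraries. These values rest on 6 counts in all in acute, 7 in remission, 8 in chronic and 213 in control libraries. The ratio to control was 0.0446 in acute libraries (95% counting interval 0.0162 to 0.0986), 0.0396 in remission (0.0157 to 0.0831) and 0.047 in chronic libraries (0.02 to 0.0943). The intervals cover counting error only, since counts were pooled over the 3 libraries of a group, and they leave out the spread between mice. Reads carry no molecular identifiers, so duplicate reads cannot be told from separate molecules.

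No difference in Nhs between phases passed the test. Nhs was among the tested genes only through its control libraries, so the tests between phases cannot decide whether its levels differ. Remission against acute gave -0.15 ± 0.87 (log2, SE; adjusted p = 0.909, edgeR), chronic against acute 0.03 ± 0.81 (adjusted p = 0.984, edgeR) and chronic against remission 0.18 ± 0.81 (adjusted p = 0.944, edgeR). At this depth the counting interval of the remission over acute ratio, 0.256 to 3.2, leaves room for sizeable differences in either direction. The 8 chronic counts came mostly from replicate 2, and without it the chronic against acute difference was -1.97 (adjusted p = 0.243, edgeR) and the chronic against remission difference -1.82 (adjusted p = 0.458, edgeR). Without it the chronic against control value was -6.39, beside -4.38 with it. The genes nearest to Nhs in profile were Kcnk12, a potassium channel subunit, Klhdc8b, a kelch-repeat protein, and Zfp827, a zinc finger protein, with root mean square differences of 0.90, 1.01 and 1.07. Kcnk12 averaged 0.0988 ± 0.171 CPM in acute, 1.03 ± 0.486 CPM in remission, 1.05 ± 0.911 CPM in chronic and 11.2 ± 1.43 CPM in control libraries (SD, n = 3 each).

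The family member Nhsl2 had another order of levels, with 18.2 ± 4.29 CPM in acute, 4.61 ± 1.75 CPM in remission, 2.7 ± 0.885 CPM in chronic and 10.4 ± 0.885 CPM in control libraries (SD, n = 3 each). It fell in chronic against control libraries by 1.97 ± 0.33 on the log2 scale (adjusted p = 0.000241, edgeR) and in remission against acute libraries by 1.98 ± 0.3 (adjusted p = 3.04e-05, edgeR). Its acute against control difference of 0.81 ± 0.27 (adjusted p = 0.0205, edgeR) lost the call under 5 of 18 alternatives, scaling by library totals among them, and its remission against control difference of -1.17 ± 0.3 (adjusted p = 0.015, edgeR) under 3 of 18. Nhsl1 stayed at or under 0.699 ± 0.654 CPM in every group mean. The WAVE complex, the actin nucleation machinery that Nhs family proteins resemble in part, was split. Of 16 genes of the family and complex, 13 were tested. In acute against control libraries 5 rose and 4 fell (median log2 fold change 0.22), beside 23.7% higher and 20% lower over all tested genes. Under scaling by library totals 2 rose and 6 fell (median -0.33), and Nhsl2, Nckap1 and Brk1 were among the calls lost. Rac2, a GTPase that activates the complex, rose by 1.79 ± 0.21 (adjusted p = 3.3e-06, edgeR). The complex subunits Abi3 and Cyfip1 fell by 1.04 ± 0.15 (adjusted p = 1.34e-05, edgeR) and by 0.7 ± 0.12 (adjusted p = 6.99e-05, edgeR) on the log2 scale.

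Il7r differed from the other 5 genes in the order of its phases. It lies at chr15:9505788-9530176 on the minus strand, with 4663 bases of exon. It had 16.1, 19.2 and 12.2 CPM in acute libraries, 5.17, 7.08 and 5.05 CPM in remission, 2.04, 7.56 and 8.42 CPM in chronic libraries, and 27.2, 35.7 and 22.7 CPM in control. Each acute library lay above every remission and chronic library and under every control library, and remission and chronic libraries overlapped. The means were 15.8 ± 3.52 CPM in acute, 5.76 ± 1.14 CPM in remission, 6.01 ± 3.46 CPM in chronic and 28.5 ± 6.65 CPM in control libraries (SD, n = 3 each).

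Il7r fell in remission against the acute phase by 1.45 ± 0.35 on the log2 scale (adjusted p = 0.00351, edgeR) and in the chronic phase against the acute phase by 1.39 ± 0.35 (adjusted p = 0.0062, edgeR). It was the only gene of the 6 to be called lower in both of these comparisons. Between chronic and remission libraries the difference was 0.05 ± 0.38 (adjusted p = 0.963, edgeR). The counting interval of the ratio, 0.758 to 1.42, leaves out the spread between mice. The summed level of lymphocyte genes was highest among the disease phases in acute libraries, but not every gene ran in that order. Of 9 genes tested from a list of 20 for T, B, NK and innate lymphoid cells, 7 rose in acute against control libraries and 2 fell. Over all tested genes 23.7% rose and 20% fell there. In remission against acute libraries 7 of these 9 fell, and Il1rl1 and Cd79b rose, beside 17.6% higher and 19.4% lower over all tested genes. The list summed to 83 to 117 CPM in acute, 10.7 to 23.8 CPM in remission, 6.38 to 10.8 CPM in chronic and 16 to 20.3 CPM in control libraries. The T cell receptor component Cd3e averaged 12.5 ± 3.61 CPM in acute libraries and was at 0 counts in control, as were 10 other genes of the list, among them Cd3d, Cd3g, Cd4, Trbc2, Gata3 and Ncr1. Trac, Lck, Cd8a and Thy1 were not at 0 in control libraries, with 1, 3, 1 and 8 counts in that order. Most of the control sum came from Il1rl1, a cytokine receptor gene, at 10.8 ± 3.33 CPM in control libraries. It averaged 1.99 ± 0.464 CPM in acute, 6.19 ± 1.06 CPM in remission and 4.94 ± 2.62 CPM in chronic libraries (SD, n = 3 each). Like Il7r, Il1rl1 was highest in control. The part of the cells of this list in the level of Il7r was not tested in any group.

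Several tested partner and signalling genes of the receptor were higher in acute libraries than in control, while Il7r itself was lower in acute libraries. Of 16 genes of interleukin-7 and TSLP receptor signalling, 14 were tested. In acute against control libraries 8 rose and 0 fell (median log2 fold change 1.34), beside 23.7% higher and 20% lower over all tested genes. Under scaling by library totals 6 rose and 2 fell (median 0.78). The other 6 tested genes did not pass, among them Jak1, Stat5a and Stat5b. In remission 1 rose and 0 fell, where 9.31% of all genes were called in either direction, 6.06% higher and 3.25% lower. In the chronic phase 3 rose and 0 fell, where 14.7% were called in either direction, 9.57% higher and 5.17% lower. Under library totals these counts were 1 higher and 1 lower in remission, and 2 higher and 3 lower in the chronic phase. Il2rg, the common gamma chain with which Il7r pairs, averaged 23 ± 6.72 CPM in acute, 11.4 ± 1.17 CPM in remission, 12.2 ± 4.3 CPM in chronic and 2.93 ± 1.26 CPM in control libraries (SD, n = 3 each). It rose against control by 3.02 ± 0.33 in acute (log2, SE; adjusted p = 4.01e-07, edgeR), 2.02 ± 0.34 in remission (adjusted p = 0.000465, edgeR) and 2.08 ± 0.34 in chronic libraries (adjusted p = 0.000223, edgeR). Il7r and its partner thus stood in opposite orders between control and each disease phase.

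Crlf2, the other chain of the TSLP receptor, rose in acute libraries by 1.8 ± 0.26 (adjusted p = 1.09e-05, edgeR) and in chronic libraries by 1.39 ± 0.26 (adjusted p = 0.000717, edgeR). Of the kinases that bind these chains, Jak2 rose in acute libraries by 2.17 ± 0.19 (adjusted p = 4.64e-08, edgeR) and Jak3 by 0.89 ± 0.17 (adjusted p = 0.000319, edgeR), a call that Jak3 lost under scaling by library totals. Jak1, the kinase that binds Il7r itself, differed by 0.13 ± 0.13 (adjusted p = 0.452, edgeR). The transcription factor genes Stat5a and Stat5b differed by 0.46 ± 0.22 (adjusted p = 0.103, edgeR) and 0.17 ± 0.17 (adjusted p = 0.44, edgeR). Cish, a STAT5 target that restrains cytokine signalling, averaged 31.7 ± 9.66 CPM in acute libraries and 0.69 ± 0.712 CPM in control (SD, n = 3 each), a rise of 5.38 ± 0.52 (adjusted p = 3.92e-07, edgeR). Of the ligands, Tslp had no count in any library and Il7 had none in control and at most a mean of 0.151 ± 0.262 CPM, in chronic libraries. The genes nearest to Il7r in profile were Btla, an inhibitory receptor of lymphocytes, St8sia4, a polysialyltransferase, and Gimap6, a GTPase, with root mean square differences of 0.53, 0.54 and 0.68. St8sia4 averaged 23.7 ± 4.38 CPM in acute, 16.8 ± 2.24 CPM in remission, 15.4 ± 8.19 CPM in chronic and 74.9 ± 5.67 CPM in control libraries (SD, n = 3 each).

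**Figure D3:**
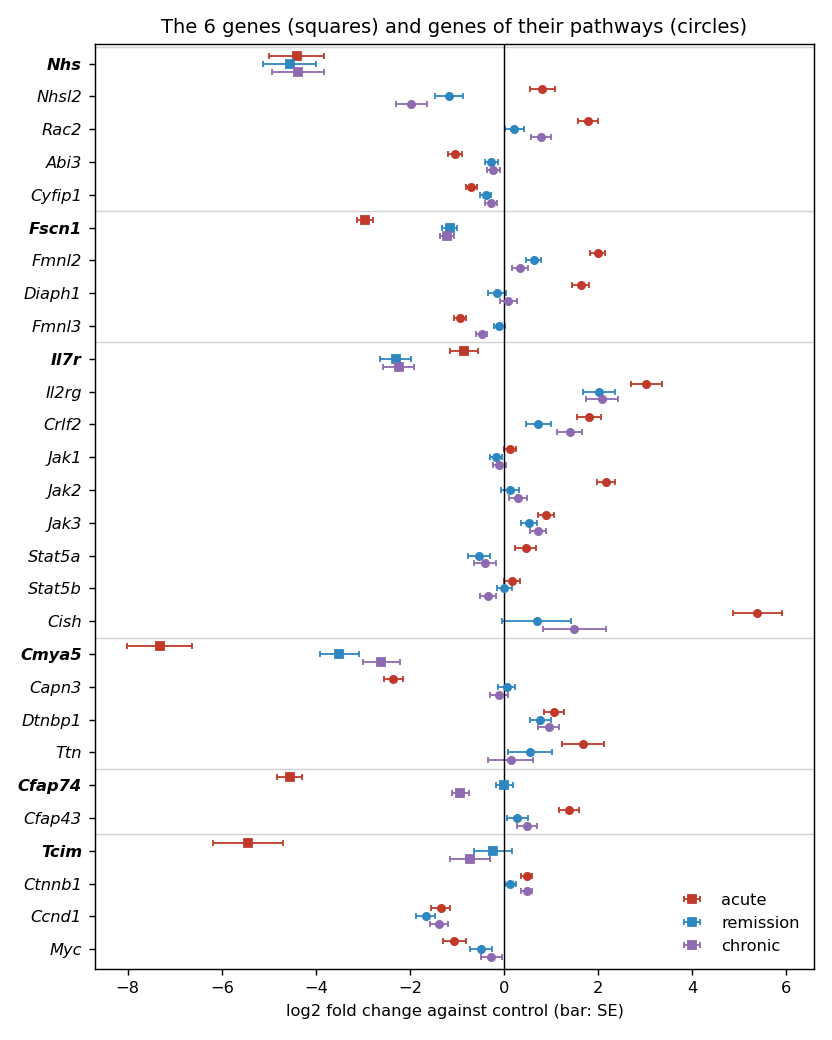
Log2 fold change against control (x axis) of the 6 genes (squares, bold) and of the genes named from their pathway lists (circles), in acute, remission and chronic libraries, with SE as bars. Il2rg, Jak2 and Cish lie right of 0 in acute libraries where Il7r lies left of it. The squares are a description, since the 6 genes were chosen for this contrast, and the fitted values of Cmya5 and Tcim in acute libraries rest on 1 and 3 counts.

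Cmya5 had 1 count in all acute libraries together. It lies at chr13:93040713-93144724 on the minus strand, with 11850 bases of exon. Its levels were 0, 0.266 and 0 CPM in acute libraries, 1.11, 1.34 and 2.66 CPM in remission, 4.77, 2.34 and 2.04 CPM in chronic libraries, and 18.9, 25.8 and 11.2 CPM in control. Every remission and chronic library lay above the acute libraries and under the control libraries. The counts behind these were 1 in acute, 23 in remission, 42 in chronic and 332 in control libraries. The acute over control ratio was 0.00476 (95% counting interval 0.00012 to 0.0267), the remission over control ratio 0.0835 (0.0522 to 0.127) and the chronic over control ratio 0.158 (0.112 to 0.219). The antisense gene A630019I02Rik shares 2451 exon bases with Cmya5, 20.7% of its exons, and since the library kit does not mark strand the reads of the pair cannot be told apart there.

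Cmya5 rose in remission against acute libraries (adjusted p = 0.00471, edgeR), with a count ratio of 17.5 (95% counting interval 2.85 to 722), and in chronic against acute libraries (adjusted p = 0.000425, edgeR), with a ratio of 33.2 (5.65 to 1340). The fitted log2 fold changes, 3.81 ± 0.99 and 4.71 ± 0.88 (SE), depend on the small prior count that edgeR adds. Without acute replicate 2, which held the 1 count, they were 5.99 (adjusted p = 0.00843, edgeR) and 6.88 (adjusted p = 0.00176, edgeR), and the acute against control value was -9.49 beside -7.32. Between chronic and remission libraries the difference was 0.89 ± 0.49 (adjusted p = 0.397, edgeR), with a ratio of 1.9 and a counting interval of 1.11 to 3.3 that leaves out the spread between mice.

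Transcripts of muscle cells were nearly absent where Cmya5 was highest. Of 16 skeletal muscle genes, 10 were at 0 counts in control libraries, among them Acta1, Ckm, Myh1, Myh2, Myh4, Myh7, Des and Myoz1, and the list summed to 5.97 to 7.54 CPM there, against 18.6 ± 7.27 CPM for Cmya5 alone (SD, n = 3). Per kilobase of exon Cmya5 averaged 1.57 ± 0.614 CPM in control, and the highest gene of the list, Tnni2, 0.808 CPM. In acute libraries, where Cmya5 was lowest, the list summed to 14.8 to 28.3 CPM. Of 11 genes for myospryn partners and muscle scaffold proteins, 6 were tested. In acute against control libraries 2 rose and 2 fell (median log2 fold change 0.36), beside 23.7% higher and 20% lower over all tested genes. Under scaling by library totals 1 rose and 2 fell. Capn3, a muscle protease that cleaves scaffold proteins, averaged 43.5 ± 13.7 CPM in acute, 233 ± 28.3 CPM in remission, 206 ± 38 CPM in chronic and 223 ± 20.9 CPM in control libraries (SD, n = 3 each). It fell in acute against control libraries by 2.36 ± 0.2 on the log2 scale (adjusted p = 6.88e-08, edgeR) and rose in remission against acute libraries by 2.42 ± 0.2 (adjusted p = 1.34e-07, edgeR). Against control its remission difference was 0.06 ± 0.18 (adjusted p = 0.895, edgeR), in a phase in which Cmya5 stood at 9.13% of its control mean. Dtnbp1, which encodes the myospryn partner dysbindin, rose in acute libraries by 1.06 ± 0.22 (adjusted p = 0.000592, edgeR), a call lost under scaling by library totals. The muscle giant Ttn rose by 1.68 ± 0.44 (adjusted p = 0.00477, edgeR). The genes nearest to Cmya5 in profile were Itga9, an integrin subunit, Slc2a5, a fructose transporter, and Mrc2, a collagen receptor, with root mean square differences of 0.73, 0.82 and 0.92. Itga9 averaged 2.92 ± 0.932 CPM in acute, 17.3 ± 4.3 CPM in remission, 14.6 ± 4.95 CPM in chronic and 86.2 ± 3.42 CPM in control libraries (SD, n = 3 each).

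**Figure D4:**
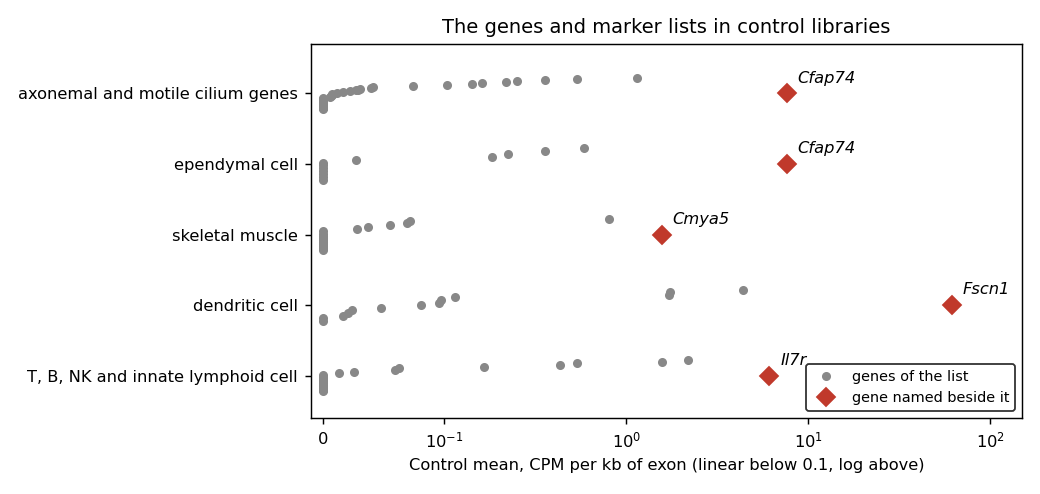
Mean level in control libraries in CPM per kilobase of exon (x axis, linear under 0.1 and logarithmic above) of the genes of 5 marker and pathway lists (grey points) and of the gene whose known role is nearest to each list (red diamonds). Cfap74 stands at 7.62 where the highest of 33 axonemal genes, Cfap43, stands at 1.15, and Cmya5 at 1.57 where the highest muscle gene stands at 0.808.

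Cfap74 was low in the acute phase, at the control level in remission and between these in the chronic phase. It lies at chr4:155409190-155466823 on the plus strand, with 9951 bases of exon. It had 1.82, 4 and 3.85 CPM in acute libraries, 71.2, 86.1 and 70.1 CPM in remission, 40.2, 51 and 27.3 CPM in chronic libraries, and 78.7, 74.3 and 74.7 CPM in control. Acute libraries lay far under all others, chronic libraries lay under every remission and control library, and the remission libraries lay on both sides of the control ones. The means were 3.22 ± 1.22 CPM in acute, 75.8 ± 8.91 CPM in remission, 39.5 ± 11.8 CPM in chronic and 75.9 ± 2.42 CPM in control libraries (SD, n = 3 each).

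Cfap74 rose in remission against acute libraries by 4.56 ± 0.26 on the log2 scale (adjusted p = 2.19e-10, edgeR) and in chronic against acute libraries by 3.63 ± 0.26 (adjusted p = 8.99e-09, edgeR). It fell in chronic against remission libraries by 0.93 ± 0.18 (adjusted p = 0.0203, edgeR), the only call among the 6 genes there, in a comparison that called 1.2% of all genes, 0.941% higher and 0.263% lower. That call was lost without remission replicate 3 (adjusted p = 0.072, edgeR) and without chronic replicate 3 (adjusted p = 0.06, edgeR), with values of -0.98 and -0.73. Over 18 alternatives the difference ran between -1.16 and -0.73, with adjusted p between 1.68e-06 and 0.072. The opposite-strand gene 5830444B04Rik shares 453 exon bases with Cfap74, 4.55% of its exons. It had 7 counts in acute, 30 in remission, 32 in chronic and 71 in control libraries, and Cfap74 had 35 counts in acute, 1100 in remission, 567 in chronic and 1323 in control libraries.

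Other genes of motile cilia were nearly absent. Of 33 axonemal and motile cilium genes, 12 were at 0 counts in control libraries and 1, Cfap43, had enough counts to test. The list summed to 31.6 to 36.5 CPM in acute, 15.9 to 27.1 CPM in remission, 18.9 to 22.1 CPM in chronic and 15.1 to 16.6 CPM in control libraries. Per kilobase Cfap74 averaged 0.324 ± 0.123 CPM in acute and 7.62 ± 0.243 CPM in control libraries (SD, n = 3 each), and Cfap43 3.02 CPM in acute and 1.15 CPM in control libraries. Cfap43, like Cfap74 named as a cilia and flagella associated protein, rose in acute against control libraries by 1.38 ± 0.21 (log2, SE; adjusted p = 1.9e-05, edgeR) and fell in remission against acute libraries by 1.11 ± 0.21 (adjusted p = 0.00031, edgeR), where Cfap74 rose. Foxj1, the main regulator of motile cilium genes, averaged 0.0888 ± 0.154 CPM in acute and 0.0719 ± 0.125 CPM in control libraries (SD, n = 3 each). Of 12 genes of ependymal cells, the ciliated lining of the central canal, 7 were at 0 counts in control, and the list summed to 5.33 to 11 CPM in acute, 1.86 to 4.25 CPM in remission, 3.57 to 6.58 CPM in chronic and 2.28 to 3.68 CPM in control libraries. The genes nearest to Cfap74 in profile were Abca9, a transporter of the ATP-binding cassette family, Col27a1, a fibrillar collagen, and Gpr153, an orphan receptor, with root mean square differences of 0.34, 0.46 and 0.55. Abca9 averaged 32.8 ± 15.6 CPM in acute, 414 ± 70.5 CPM in remission, 320 ± 70.8 CPM in chronic and 537 ± 14.1 CPM in control libraries (SD, n = 3 each).

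Tcim followed a course like that of Cfap74 at lower counts. It lies at chr8:24437180-24438984 on the minus strand as 1 exon of 1805 bases. It had 0.519, 0 and 0.296 CPM in acute libraries, 7.2, 9.95 and 16.5 CPM in remission, 6.58, 13.1 and 3.06 CPM in chronic libraries, and 11.4, 10.9 and 17 CPM in control. The acute libraries lay under all others, and the remission, chronic and control libraries overlapped. The counts were 3 in acute, 153 in remission, 114 in chronic and 221 in control libraries. The acute over control ratio was 0.0215 (95% counting interval 0.00439 to 0.0636). The antisense gene Gm26714 shares 337 exon bases with Tcim, 18.7% of its exon, and had 1 count in acute, 84 in remission, 56 in chronic and 57 in control libraries. Reads in the shared bases cannot be assigned to a strand.

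Tcim rose in remission against acute libraries (adjusted p = 7.15e-05, edgeR), with a count ratio of 38.9 (95% counting interval 13.1 to 191), and in chronic against acute libraries (adjusted p = 0.000349, edgeR), with a ratio of 30.1 (10 to 148). The fitted log2 fold changes were 5.2 ± 0.76 and 4.71 ± 0.79 (SE). Without acute replicate 1 they were 6.05 (adjusted p = 0.000754, edgeR) and 5.56 (adjusted p = 0.00268, edgeR), and without chronic replicate 2 the second of them was 4.03 (adjusted p = 0.000536, edgeR). The acute against control value was -6.29 without acute replicate 1, beside -5.44. Between chronic and remission libraries the difference was -0.49 ± 0.43 (adjusted p = 0.636, edgeR), and it was -1.17 without chronic replicate 2 (adjusted p = 0.172, edgeR). The counting interval of the ratio, 0.602 to 0.992, leaves out the spread between mice. The genes nearest to Tcim in profile were Col27a1, Adamts1, a secreted metalloprotease, and Cfap74, with root mean square differences of 0.55, 0.58 and 0.59. Among the 15 pairs that the 6 genes form, Cfap74 and Tcim were the closest, and Nhs and Cfap74, at 2.49, the farthest apart.

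Genes of beta-catenin signalling were few among those tested. Of 20 genes, 9 were tested, and 1 rose and 2 fell in acute against control libraries (median log2 fold change -0.1). Over all tested genes 23.7% rose and 20% fell there, so these counts were near or under the general share. Under scaling by library totals 0 rose and 6 fell (median -0.65). Ctnnb1, which encodes beta-catenin, averaged 168 ± 3.37 CPM in acute, 131 ± 15.3 CPM in remission, 167 ± 7.78 CPM in chronic and 120 ± 7.17 CPM in control libraries (SD, n = 3 each). Its acute rise of 0.48 ± 0.12 (adjusted p = 0.00227, edgeR) was lost under scaling by library totals. The target Ccnd1, a cyclin of the early cell cycle, fell against control by 1.35 ± 0.2 on the log2 scale in acute (adjusted p = 1.32e-05, edgeR), by 1.67 ± 0.2 in remission (adjusted p = 7.74e-06, edgeR) and by 1.38 ± 0.19 in chronic libraries (adjusted p = 3.87e-05, edgeR). Myc, another target, fell in acute libraries by 1.06 ± 0.24 (adjusted p = 0.00137, edgeR). Other genes of the list, with too few counts to test, went both ways. In acute and control libraries Axin2 had 10 and 3 counts, Rnf43 28 and 1, Lef1 38 and 1, and Tcf7 32 and 6. Nkd1 and Nkd2 each had 5 and 14. Cby1, which encodes the Tcim partner Chibby, had too few counts to test and averaged 2.13 ± 0.834 CPM in acute and 0.958 ± 0.345 CPM in control libraries (SD, n = 3 each).

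Set side by side between phases, 4 of the 6 genes rose in remission against acute libraries, Il7r fell and Nhs did not pass, where 36.9% of all genes were called, 17.6% higher and 19.4% lower. Chronic against acute libraries gave the same counts, 4 higher, 1 lower and 1 not called, where 28.8% of all genes were called, 13.3% higher and 15.5% lower. The median log2 fold change of the 6 genes was 2.8 in remission and 2.68 in chronic libraries against acute ones, beside -0.01 and 0 over all genes. The disease libraries were part of what chose the genes, so these counts are not independent of the choice. Of the 24 genes listed for resting microglia, 22 rose and 0 fell in remission against acute libraries, with a median of 1.67. That list was also chosen with earlier results of these data known. Their median level was 18.1% of the control mean in acute, 60.3% in remission and 62.1% in the chronic phase, so that Nhs, Cmya5 and Fscn1 stood under that median in each phase, Il7r and Cfap74 each stood above it in 1 phase, and Tcim under it in the acute and chronic phases.

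**Figure D5:**
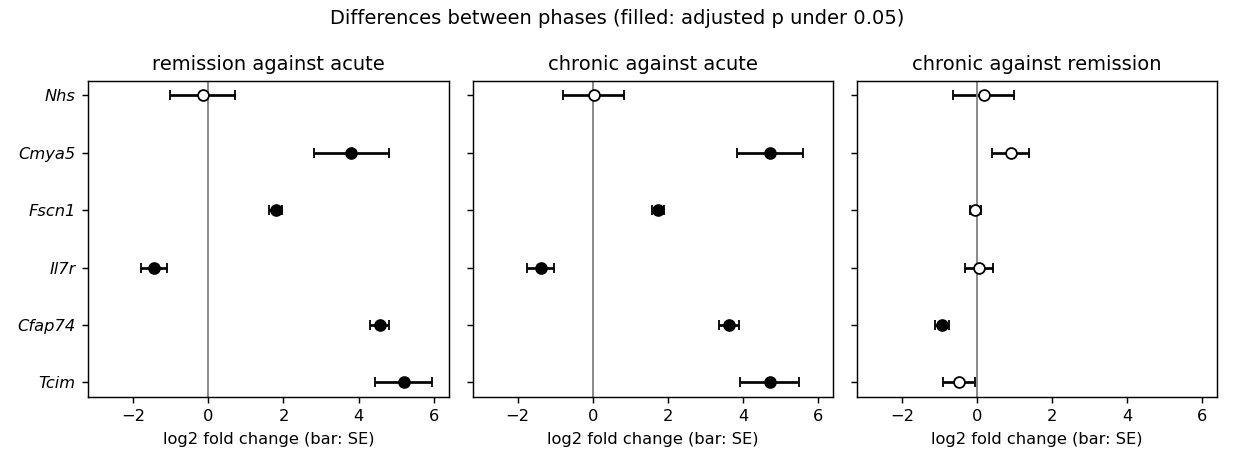
Log2 fold change of each gene (x axis, bars are SE) in remission against acute, chronic against acute and chronic against remission libraries. Filled points have an adjusted p under 0.05 (edgeR over 12545 genes). Cmya5, Fscn1, Cfap74 and Tcim lie right of 0 and Il7r left of 0 in the first 2 panels, and Cfap74 at -0.93 is the only filled point in the last.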

How the data were processed

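RNA was read from 12 sorted microglia libraries, primed with random hexamers, made with a Nextera XT kit, which does not mark strand, and read from 1 end, per the labels' protocols. The authors deposited raw read counts per gene, as whole numbers with no normalization, in 1 table per library and 1 merged table whose values were identical. HISAT2, SAMtools 1.3.1, Picard 2.6.4, HTSeq 0.6.1 and GRCm38 are named in the submitters' processing notes. Gene IDs were matched to GENCODE M21 (48144 of 48526).

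Counts were fitted in edgeR 4.0.16 (R 4.3.3): genes kept by filterByExpr, TMM factors, a robust quasi-likelihood fit of all 12 libraries in 4 groups, and Benjamini-Hochberg adjustment over 12545 genes, with calls at an adjusted p under 0.05. The scripts were tested on simulated data. DESeq2 1.42.0, other scalings, no filter, the number in each sample's title and each library left out in turn were alternatives. Levels per kilobase divide CPM by the summed exon length. Nearness of profiles used log2 CPM with a prior count of 2 over 10601 genes.

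Related genes were named by rule: up to 3 per pathway list with the smallest p in acute against control, up to 2 in each comparison between phases, 10 receptor, kinase and partner genes whatever their p, and the 3 nearest profiles. The 6 genes and all lists were chosen with earlier results of these data known. Replicate numbers follow the order of the records and pair no mice. The labels and design text describe 3 mice per group, so p-values measure the spread between these mice.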

Additional observations from a re-analysis of the deposited data

How the results depend on the processing

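Between phases, 322 of 324 recomputed values of the 6 genes kept their direction and their side of the threshold over 18 alternatives, the exceptions being the 2 lost calls of Cfap74 in chronic against remission libraries given above. Of the 324 values against control, 314 moved by less than their error. Scaling by library totals moved the median of all genes by -0.53 in acute, -0.24 in remission and -0.37 in chronic against control libraries, and by 0.31, 0.19 and -0.13 in remission against acute, chronic against acute and chronic against remission. Under it the share of calls that were higher was 22.8% in place of 54.3% in acute, 32.6% in place of 65.1% in remission and 21.7% in place of 64.9% in chronic against control libraries, 71.2% in place of 47.6% in remission against acute, 64.4% in place of 46.3% in chronic against acute and 61.4% in place of 78.1% in chronic against remission. All calls of the 6 genes between phases held under it.

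Counts of called genes moved by over 1.5 times in these cases, and the cause was not tested. Chronic against control called 1848 genes, 3241 under library totals and between 1216 (without control replicate 2) and 1927 with a library left out. Remission against control called 1168 genes, and between 757 (without control replicate 2) and 1312 with a library left out, with 767 without control replicate 1. Chronic against acute called 3610 genes, and 2402 once the number in the title was a covariate. Chronic against remission called 151 genes, 828 without the low count filter, where the share higher was 58.5%, and 385 with DESeq2. With a library left out it called between 17 (without remission replicate 3) and 283 (without remission replicate 2), and 65 without remission replicate 1, 272, 270 and 50 without chronic replicates 1, 2 and 3, and 94 without control replicate 2. Where acute libraries held 1 or 3 counts of a gene, depth limits how large the difference can be said to be. Of the 3 nearest profiles, all 3 stayed for Fscn1 and Cfap74 under a prior count of 0.5. For Nhs, Cmya5, Il7r and Tcim 2 of 3 stayed, the ones lost being Kcnk12, Itga9, Btla and Cfap74 in that order. Btla also left the nearest 10 of Il7r. Under library totals 1 of 3 stayed for Tcim, 2 of 3 for Cmya5 and all 3 for the others.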
